A study of Mus musculus with 8 samples.

Results

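Ifi203, Ifi204, Ifi205 and Aim2 are genes of the Ifi200 cluster on mouse chromosome 1, and were chosen by their symbols as 4 of the 24421 genes in the files. They encode interferon-inducible proteins of the p200 or PYHIN family, some of which have been tied to the differentiation of osteoblasts. RNA was sequenced from osteoblastic cells that were isolated by enzymatic digestion from the calvaria (skull bones) of newborn mice up to 3 days old, on a C57BL/6 background. Cells came from Def6-/- mice, which lack Def6, a guanine nucleotide exchange factor, and from WT littermates. They were analysed at day 0, before induction, and after 12 days in osteogenic medium with ascorbic acid and β-glycerophosphate, so that there were 4 groups (WT at day 0, WT at day 12, Def6-/- at day 0, Def6-/- at day 12) with 2 libraries each. The cultures were not sorted, and cells of other kinds could be among them. How genotype and day went together with the expression of the 4 genes is described here.

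PYHIN proteins typically join a pyrin domain, which binds other pyrin domains, to a HIN-200 domain, which binds DNA. AIM2 senses DNA in the cytosol and assembles an inflammasome with the adaptor ASC and caspase-1, while p204, the product of Ifi204, acts as a DNA sensor upstream of STING and in the nucleus binds the retinoblastoma protein, Id proteins and the osteoblast transcription factor Runx2. Many genes of the family are induced by type I interferon through factors that bind the interferon-stimulated response element (ISRE), and macrophages are known for high expression of several members.

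In the GENCODE M21 annotation of GRCm38 (mm10), Aim2 lies on the plus strand at chr1:173350879-173466040. Ifi204 (chr1:173747293-173766943), Ifi203 (chr1:173920407-173942672) and Ifi205 (chr1:174011998-174031810) follow on the minus strand. Besides the 4 genes the files hold 8 further PYHIN rows, several under older symbols: AI607873 is now Ifi207, Mnda is Ifi211, Pyhin1 is Ifi209, Pydc4 is Ifi213 and Pydc3 is Ifi208, while Mndal and Ifi202b keep their names and BC094916 was not matched to the annotation. The 11 matched genes span 680.9 kb. Mndal is annotated on the same strand as Ifi203 and covers 99.2% of its span, but only 37 bases of their exons coincide, which is 0.552% of the exon bases of Ifi203.

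Promoter windows of the family were searched for motifs. RefSeq windows (GRCm38.p6, 250 bases before to 50 after a start site) were found for 10 of the 11 matched genes, with none for Ifi204, and were searched on both strands for the ISRE core GAAANNGAAA. The core occurred in the windows of 7 of the 10 genes, against 3.99% of the 27025 genes with a window in the mouse genome. Among the 4 genes with the symbols chosen, Ifi203 and Ifi205 hold it, and the window of Aim2 does not. The RefSeq starts can differ from those of GENCODE. The window of Aim2 lies inside its GENCODE span, far from the GENCODE start at chr1:173350879, where the sequence was not searched. The windows of Mndal, which end at chr1:173880437 or before, likewise lie far from its GENCODE start at chr1:173942491. The second core searched, the gamma-activated sequence TTCNNNGAA, occurred in 1 of the 10 genes, Ifi202b, and in 9.55% of all genes. A match describes letters in a window and is neither a binding site nor a cause. The window of Ifi203 that holds the core (chr1:173942443-173942742, minus strand) and that of Aim2 (chr1:173420354-173420653, plus strand) are shown whole, as a window with the core and a window without it. The core is in capitals.
Ifi203: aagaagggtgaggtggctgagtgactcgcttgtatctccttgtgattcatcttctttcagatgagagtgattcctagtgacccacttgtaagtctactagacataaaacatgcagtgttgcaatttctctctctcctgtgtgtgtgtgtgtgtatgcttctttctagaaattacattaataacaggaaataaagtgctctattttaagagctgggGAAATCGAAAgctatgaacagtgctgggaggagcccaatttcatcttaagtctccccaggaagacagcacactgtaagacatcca
Aim2: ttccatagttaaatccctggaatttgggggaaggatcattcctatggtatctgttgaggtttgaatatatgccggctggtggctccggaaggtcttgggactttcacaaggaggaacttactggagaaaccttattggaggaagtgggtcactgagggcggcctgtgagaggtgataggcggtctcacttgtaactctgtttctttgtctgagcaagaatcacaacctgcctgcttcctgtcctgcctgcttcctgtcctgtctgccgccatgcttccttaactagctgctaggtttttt

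For the related genes, the 60 bases around the core are shown to compare its setting, all on the minus strand: Ifi203 at chr1:173942493-173942552, Mndal at chr1:173880189-173880248, Ifi205 at chr1:174031855-174031914, AI607873 at chr1:173741816-173741875 and Mnda at chr1:173913049-173913108.
Ifi203: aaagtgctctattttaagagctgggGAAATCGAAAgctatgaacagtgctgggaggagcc
Mndal: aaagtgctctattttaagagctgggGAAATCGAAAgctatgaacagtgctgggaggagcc
Ifi205: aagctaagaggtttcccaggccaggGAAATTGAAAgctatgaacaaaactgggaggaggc
AI607873: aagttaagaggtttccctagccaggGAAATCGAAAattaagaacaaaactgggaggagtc
Mnda: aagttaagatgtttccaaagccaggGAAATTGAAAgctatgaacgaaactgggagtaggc

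The stretches of Ifi203 and Mndal were identical over all 60 bases. That of Ifi205 matched Mnda at 90% and AI607873 at 86.7% of positions, and Ifi203 at 66.7%. The core shown begins 35 bases before the RefSeq start site in Ifi203, 36 in Mndal, 41 in AI607873 and 37 in Mnda, but 134 bases before it in Ifi205. On the opposite strand, the window of Ifi205 holds a second core 23 bases after the start site. A second window of Mndal holds a core on the opposite strand, 54 bases before its start site, and a second window of Ifi203 holds none. The stretches around the core of Pydc4 and Pydc3 were identical to each other.

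The authors deposited CPM values, from which the whole reads of a gene could be recovered, and all PYHIN values came out whole. Libraries had between 2414856 and 3482837 reads on genes. Values below are reads, or normalized CPM, which are CPM of the reads on genes scaled with TMM factors. A library with 0 reads allows up to 3 reads, which is between 0.861 and 1.28 normalized CPM. Def6 had 112 to 186 reads in each WT library and 0 to 2 reads in each Def6-/- library, so that every library matched its label. The replicates of WT cells at day 0 differed most from each other (chi-square per gene 32.4, against 4.34 to 12.2 in the other groups). Some changes in WT cells are therefore also given with each of them left out. Such a fit leaves 1 library in the group and takes no spread from it, so that only estimates are given for named genes. For differences, limma was fitted to log2(normalized CPM + 1) in the 12348 genes whose deposited CPM averaged 1 or more in any group, and a call is a Benjamini-Hochberg adjusted p under 0.05 over these genes. Ifi203 and Ifi204 passed this filter, while Aim2 and Ifi205 were too low.

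Ifi203, whose protein p203 is a nuclear member of the family, was close to absent at day 0 and present in every library at day 12. At day 0 it had 2 and 0 reads in WT replicates 1 and 2, and 0 and 1 reads in Def6-/- replicates 1 and 2. At day 12 it had 32 and 26 reads in WT cells and 22 and 13 reads in Def6-/- cells. All 4 libraries at day 12 were above all 4 at day 0. Of all tested genes, 29.2% in WT cells and 35.2% in Def6-/- cells had both libraries at day 12 above both at day 0.

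In normalized CPM, Ifi203 went from 0.395 ± 0.558 (SD, n = 2) to 10.03 ± 1.204 in WT cells. It went from 0.170 ± 0.241 to 7.29 ± 2.46 in Def6-/- cells. The rise passed the test in both genotypes, with a log2 fold change of 3.04 in WT cells (95% interval 2.08 to 4.002, limma adjusted p = 0.00167) and 2.81 in Def6-/- cells (1.85 to 3.77, limma adjusted p = 0.00246). Adding 1 to the CPM before taking log2 makes these changes smaller than the true ones for a gene with so few reads at day 0. The pooled reads, 58 against 2 in WT cells, give a ratio of 26.5 with an interval of 7.01 to 223.8, and 35 against 1 in Def6-/- cells give 40.95 with an interval of 6.88 to 1663. Both intervals cover counting error only. In WT cells, the log2 change was between 2.62 and 3.46 when each library was left out in turn.

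**Figure D1:**
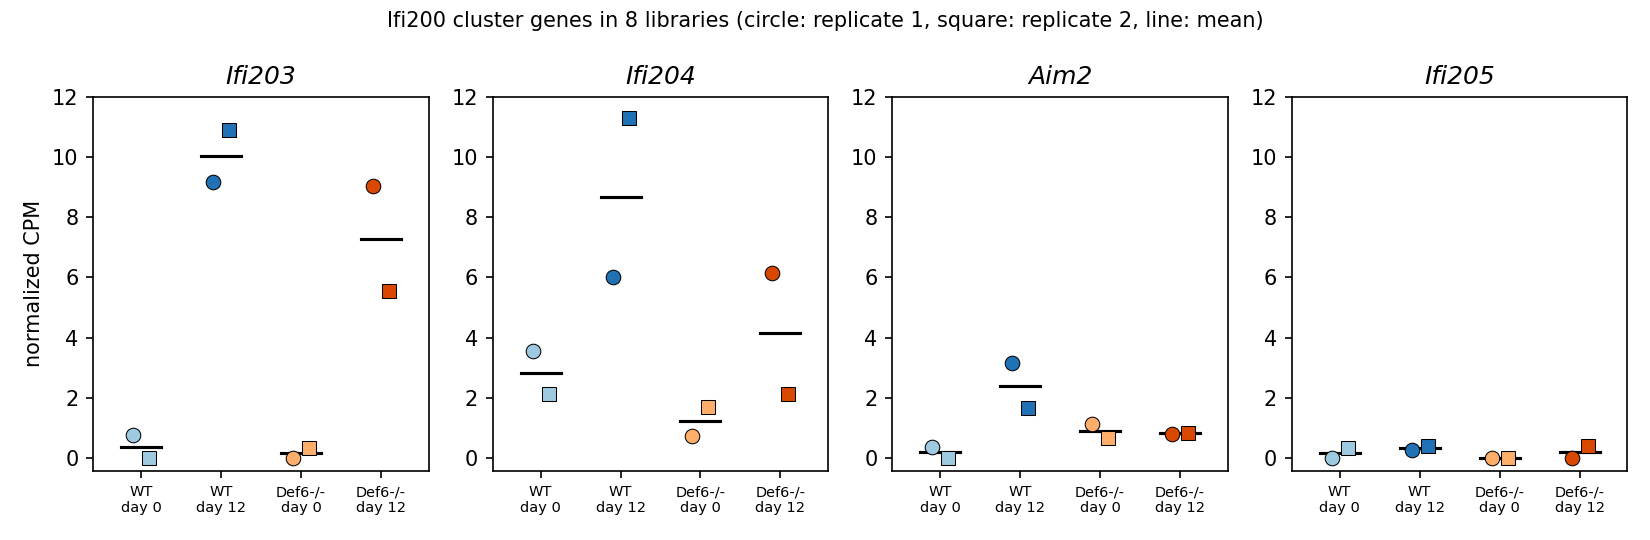
Normalized CPM of Ifi203, Ifi204, Aim2 and Ifi205 (vertical axis, linear) in the 8 libraries by genotype and day; circles are replicate 1, squares replicate 2 and lines the means of 2 libraries. Ifi203 separates by day in both genotypes, Ifi204 is highest in WT replicate 2 at day 12 (11.3), Aim2 stands higher in WT cells at day 12 than in any other group, and Ifi205 is near 0 throughout.

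Ifi204, whose protein p204 is a DNA sensor and a partner of Runx2, was already detected at day 0. It had 9 and 6 reads in WT cells and 2 and 5 reads in Def6-/- cells at day 0. At day 12 it had 21 and 27 reads in WT cells, and 15 and 5 reads in Def6-/- cells. Within each genotype both libraries at day 12 were above both at day 0, an order shared by 29.2% and 35.2% of all tested genes, but Def6-/- replicate 2 at day 12 (2.13 normalized CPM) was no higher than WT replicate 1 at day 0 (3.55).

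The mean of Ifi204 was 2.84 ± 1.01 normalized CPM (SD, n = 2) at day 0 and 8.66 ± 3.73 at day 12 in WT cells. In Def6-/- cells it was 1.23 ± 0.672 and 4.15 ± 2.85. The log2 fold change from day 0 to day 12 was 1.30 in WT cells (95% interval 0.16 to 2.44, limma adjusted p = 0.111) and 1.12 in Def6-/- cells (-0.02 to 2.26, limma adjusted p = 0.173), and neither passed the adjusted threshold. Without WT replicate 1 or 2 at day 0, the change in WT cells was 1.58 or 1.03. The change in Def6-/- cells was 0.53 without Def6-/- replicate 1 at day 12 and 1.72 without Def6-/- replicate 2 at day 12.

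Aim2, the receptor of the AIM2 inflammasome, was below the filter, and its reads are therefore given first. It had 1 and 0 reads in WT cells at day 0, and 11 and 4 reads at day 12. In Def6-/- cells it had 3 and 2 reads at day 0 and 2 reads in each library at day 12. Both WT libraries at day 12 were above the other 6 libraries, none of which had more than 3 reads. At day 12 WT cells averaged 2.42 ± 1.05 normalized CPM (SD, n = 2), against 0.837 ± 0.0231 for Def6-/- cells.

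When limma was run with no filter on low genes, over 16652 genes with at least 1 read, the change of Aim2 from day 0 to day 12 was 1.497 on the log2 scale in WT cells (95% interval 0.78 to 2.22, adjusted p = 0.0166) and -0.04 in Def6-/- cells (-0.76 to 0.68, adjusted p = 0.995). It was 1.74 or 1.26 in WT cells without WT replicate 1 or 2 at day 0. The quasi-likelihood test of edgeR over the same genes gave an adjusted p of 0.0635 in WT cells, so that the call depends on the test. The difference between these changes was -1.54, with an unadjusted p under 0.05 by limma but not by edgeR, and an adjusted p of 0.9997 by limma. By reads pooled over 2 libraries, 15 in WT cells and 4 in Def6-/- cells at day 12 give a WT to Def6-/- ratio of 3.05 with an interval of 0.972 to 12.6, which covers counting error only and includes 1.

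Ifi205, whose protein is the closely related p205, was not measurable at this depth. It had 1 read in each WT library at day 12, 1 read in WT replicate 2 at day 0 and 1 read in the second Def6-/- library at day 12, with none in the other 4 libraries. No fold is given, since every group is at or under 3 reads.

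Of the 2 members that passed the filter, 1, Ifi203, was called higher at day 12 in each genotype. For comparison, 12.7% of all tested genes were called higher in the WT comparison and 12% in that of Def6-/- cells. Of the 5 PYHIN rows that passed the filter, 3 were called higher in each genotype, Ifi203, Mndal and AI607873. None was called lower, where 5.64% of all tested genes were in WT cells and 4.79% in Def6-/- cells. WT cells had a median change of 1.59 over the 5 rows and Def6-/- cells 1.52, while the medians over all tested genes were -0.00207 and 0.00881. All 5 rows passed the filter through their day 12 values alone and could hardly have fallen. The counts and medians therefore only describe these rows and do not stand for the whole family.

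Mndal, which encodes another nuclear member of the family, had 4 and 1 reads in WT cells and 2 and 1 reads in Def6-/- cells at day 0. At day 12 it had 29 and 19 reads in WT cells and 17 and 16 reads in Def6-/- cells. It rose by 2.29 on the log2 scale in WT cells (limma adjusted p = 0.00494) and by 2.37 in Def6-/- cells (limma adjusted p = 0.00423), with no overlap between days (as for 29.2% and 35.2% of all tested genes). Without WT replicate 1 or 2 at day 0 the rise in WT cells was 2.76 or 1.82. When the reads of Mndal were added to Ifi203, an alternative chosen after the values were seen, the sum rose by 3.16 in WT cells and 3.13 in Def6-/- cells (limma adjusted p = 0.00160 and 0.00166).

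AI607873 had 9 and 4 reads in WT cells and 6 and 3 reads in Def6-/- cells at day 0. At day 12 it had 39 and 17 reads in WT cells and 19 and 12 reads in Def6-/- cells. Its rise of 1.59 in WT cells (limma adjusted p = 0.0398) and 1.52 in Def6-/- cells (limma adjusted p = 0.0496) lay just inside the threshold, and 7 of 12 alternatives in WT cells and 9 of 12 in Def6-/- cells put it outside. Without WT replicate 2 at day 0 the change in WT cells was 1.13, and without WT replicate 1 at day 0 it was 2.04.

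Mnda had 5 and 2 reads at day 0 and 18 and 12 at day 12 in WT cells, and its change of 1.44 did not pass the adjusted threshold (limma adjusted p = 0.0665), nor did that of 0.69 in Def6-/- cells (limma adjusted p = 0.372). Without WT replicate 1 at day 0 the change of Mnda in WT cells was 1.84, and without WT replicate 2 at day 0 it was 1.03. Pyhin1 had 1 and 0 reads in WT cells at day 0, 3 reads in each WT library at day 12, 1 and 0 reads in Def6-/- cells at day 0, and 0 reads in both Def6-/- libraries at day 12. Pydc4 had 1 read in all, and Ifi202b, Pydc3 and BC094916 had none.

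**Figure D2:**
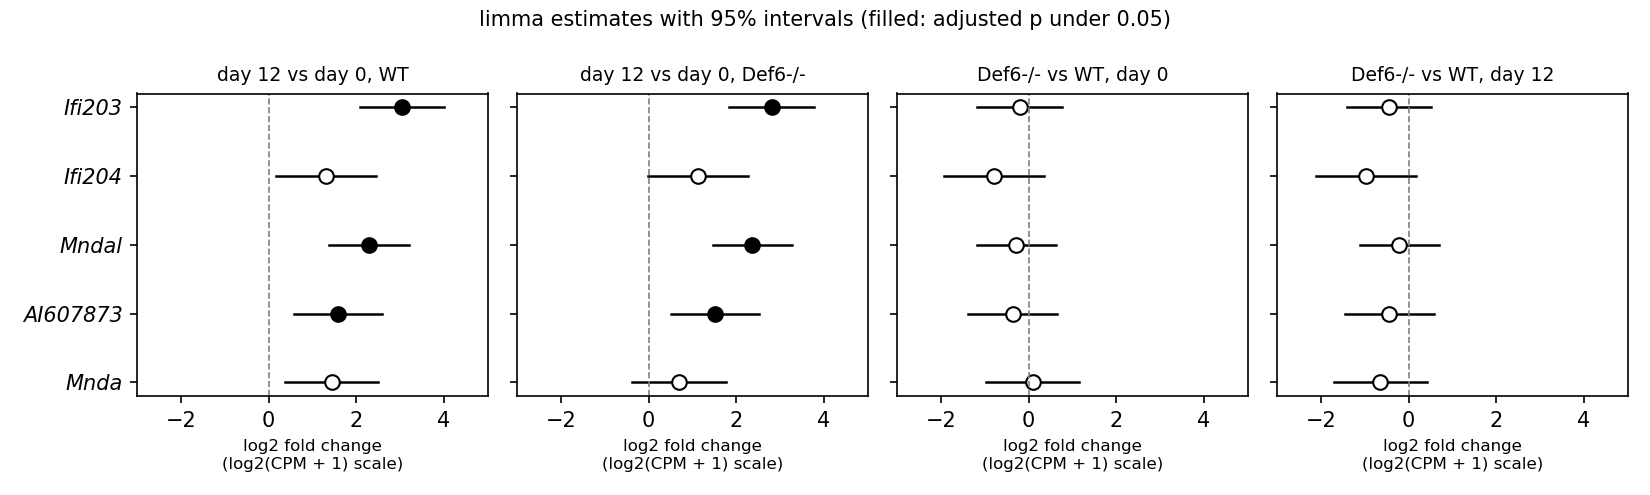
Log2 fold changes on the log2(CPM + 1) scale (horizontal axis) with 95% intervals from limma for the 5 PYHIN rows that passed the filter, in 4 comparisons of 2 libraries against 2; filled points have an adjusted p under 0.05. Ifi203, Mndal and AI607873 are filled in both comparisons of days, and no row is filled in the comparisons of genotypes.

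Levels of different genes can be compared only per length, and were divided by the exon bases annotated for each gene. At day 12 in WT cells, Mnda stood at 2.85 ± 0.0558 normalized CPM per kb (SD, n = 2), AI607873 at 2.67 ± 0.842, Ifi204 at 2.43 ± 1.05 and Mndal at 2.24 ± 0.0714. These 4 neighbours in the order did not differ beyond the larger of their SDs, except for Mnda and Mndal, which were 2.81 and 2.89 against 2.19 and 2.29. Ifi203 followed at 1.496 ± 0.180, then Aim2 at 0.690 ± 0.299, Pyhin1 at 0.298 ± 0.0788 and Ifi205 at 0.0845 ± 0.0223.

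Ifi203 and Ifi204 differed by less than the SD of Ifi204, while the libraries of Aim2 (0.901 and 0.478) lay below both of Ifi203 (1.37 and 1.62). At day 0 in WT cells Ifi204 stood at 0.797 ± 0.284, above Ifi203 at 0.0589 ± 0.0833 and Aim2 at 0.0564 ± 0.0797. Ifi203 and Aim2 rested there on 2 reads and 1 read in all, and cannot be ordered. Ifi203 has 6706 annotated exon bases, more than Ifi204 with 3561 or Aim2 with 3501, and which of these exons the transcripts of the cells contained was not tested.

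**Figure D3:**
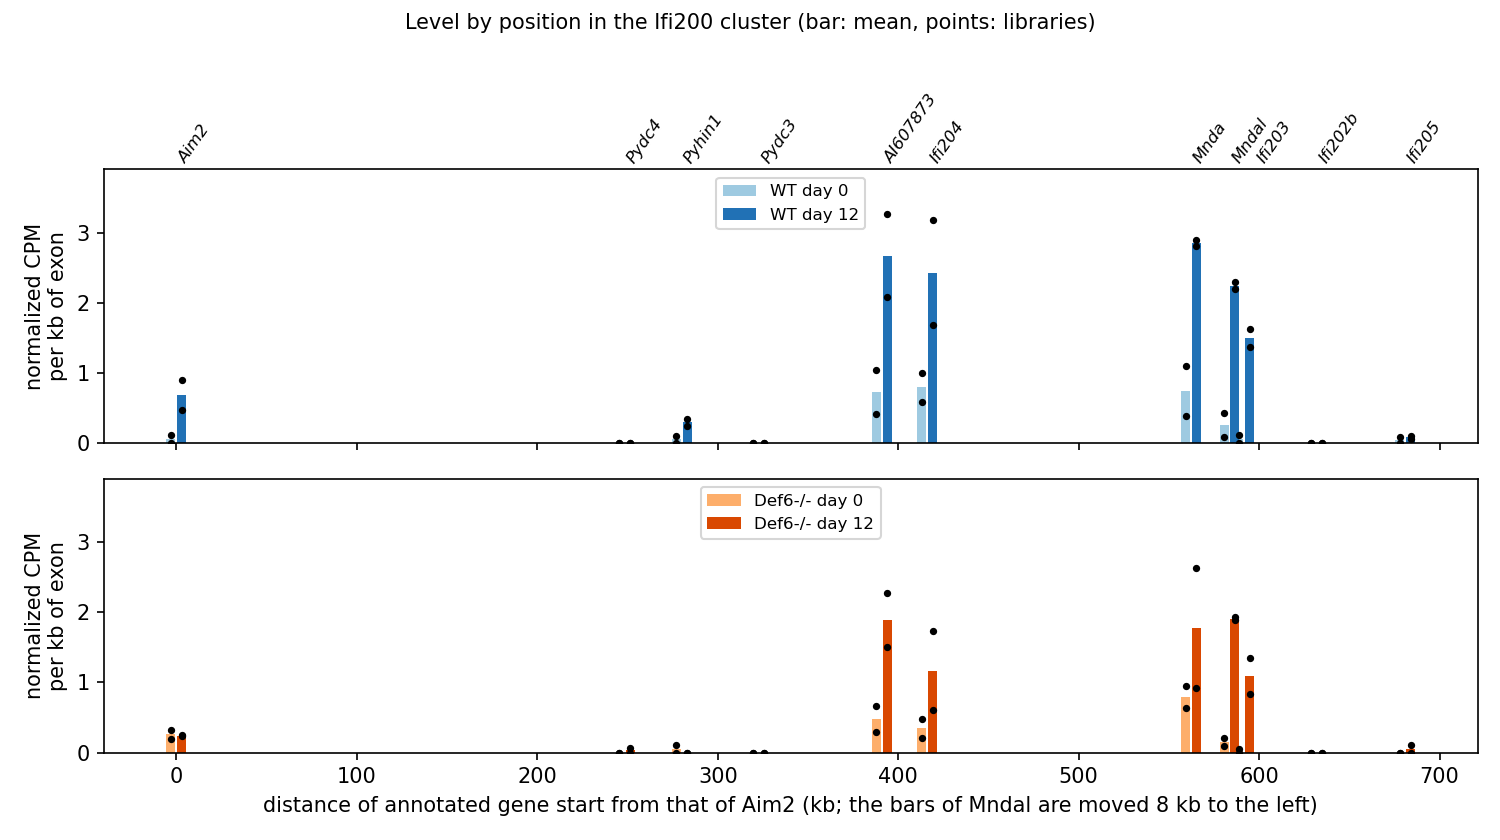
Normalized CPM per kb of exon (vertical axes) for the 11 matched PYHIN genes at the distance of their annotated start from that of Aim2 (horizontal axis, kb), for WT cells above and Def6-/- cells below; bars are means of 2 libraries and points are libraries. Reads at day 12 fell mainly on 2 stretches, AI607873 and Ifi204, and Mnda, Mndal and Ifi203, with little on the genes between Aim2 and AI607873 or on Ifi202b and Ifi205.

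Sequence shared among the genes limits these values, because between 21.4% and 34.9% of the reads of a library were not uniquely aligned and were not counted. Of the 50-base windows in the transcripts of each gene, those also found in a transcript of another gene were 0.742% for Aim2, 12.35% for Ifi203, 18.6% for Ifi205 and 20.02% for Ifi204. For Mnda they were 72.8%, with 44.7% found in Ifi205, so that its reads are uncertain. They were 7.29% for AI607873 and 19.55% for Mndal.

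Between genotypes, none of the 4 genes was called on either day. At day 12 limma gave 1 call in all (0.0081% of tested genes), Def6 itself, and likewise at day 0 (0.0081%). The count at day 0 depended on WT replicate 2 at day 0, and a fit without it takes no spread from that group. At an unadjusted p under 0.05, limma, edgeR and DESeq2 each found none of the 2 members that passed the filter, on either day. The criterion of the study was this p and a change over 1.2-fold. By it, 0.591% of all genes fell below WT at day 12 and 1.31% at day 0. At shares this small, none of 2 does not set the members apart. With no filter Aim2 met that criterion at day 12 by limma (log2 fold change -0.86, 95% interval -1.58 to -0.14, adjusted p = 1), but not by edgeR.

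The estimates at day 12 were nevertheless below 0 for each of the 5 rows that passed the filter. They were also below 0 for all 18 of the tested macrophage markers with whole reads (median -0.33, none called), whose part in the difference was not tested. Ifi204 was at -0.97 on the log2 scale (95% interval -2.11 to 0.17, limma adjusted p = 1), and Ifi203 at -0.44 (-1.40 to 0.52, limma adjusted p = 1). For 3 of the 5 rows, Ifi203, Mndal and Mnda, the WT libraries both exceeded the Def6-/- libraries, where 15.9% of all tested genes were so ordered. For Ifi204 the genotypes overlapped, with 6.02 and 11.3 normalized CPM in WT cells against 6.16 and 2.13 in Def6-/- cells. Without Def6-/- replicate 1 its difference was -1.57, and without Def6-/- replicate 2 it was -0.38.

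Summed over the 12 PYHIN rows, WT libraries held 44.2 to 45.6 normalized CPM at day 12 and Def6-/- libraries 26.0 to 32.4. At day 0 the sums were 4.95 to 12.2 and 5.79 to 6.40, and overlapped. Over the 4 genes alone the sums at day 12 were 18.65 to 24.3 in WT cells and 8.96 to 16.0 in Def6-/- cells. The sums were not tested, and 15.9% of all tested genes also had both Def6-/- libraries below both WT libraries at day 12.

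At day 0 Ifi204 was lower in both Def6-/- libraries than in both WT libraries, as 11.7% of all tested genes were, with a difference of -0.79 (95% interval -1.93 to 0.35, limma adjusted p = 0.908). This difference was -0.52 or -1.06 without WT replicate 1 or 2 at day 0. For Ifi203 the difference was -0.21 (-1.17 to 0.75), on 2 reads against 1. A difference between genotypes in the change with time was not called for either gene, with an interaction of -0.23 for Ifi203 (-1.59 to 1.13) and -0.18 for Ifi204 (-1.79 to 1.43, limma adjusted p = 0.9998 for both). No gene at all was called for the interaction by limma (0%), edgeR or DESeq2, with 1.13% at an unadjusted p under 0.05 by limma. The count of interaction calls also depended on WT replicate 2 at day 0, without which that group gives no spread. The intervals of the interaction include a 2-fold difference in either direction. Comparisons of genotypes and of days share libraries, and their values are not independent of each other.

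Genes of the pathways around the family were counted from fixed lists. Of the 12 tested genes of the AIM2 inflammasome and DNA sensing, 4 were called higher at day 12 in WT cells and 3 in Def6-/- cells, and none lower, beside 12.7% and 12% of all tested genes called higher. All of those called (Pycard, Casp1, Casp4 and Zbp1) passed the filter through their day 12 values alone and could hardly have fallen. These counts therefore only describe the genes. The changes of Gsdmd, Il18 and Nlrp3 in WT cells depended on which WT library at day 0 was kept. They were 1.27, 1.81 and 2.03 without replicate 1, and 0.53, 1.03 and 0.56 without replicate 2. Pycard, which encodes the adaptor ASC, went from 1.18 and 1.06 to 12.05 and 7.95 normalized CPM in WT cells, and from 0.376 and 1.02 to 13.96 and 7.68 in Def6-/- cells. It rose by 2.35 in WT cells (limma adjusted p = 0.00464) and by 2.77 in Def6-/- cells (limma adjusted p = 0.00209).

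Casp1, the effector protease of the inflammasome, rose by 2.52 in WT cells (limma adjusted p = 0.0113) and 1.98 in Def6-/- cells (limma adjusted p = 0.0329), and Casp4, a sensor of lipopolysaccharide, rose by 1.64 and 2.05 (limma adjusted p = 0.0152 and 0.00544). Of the DNA sensing genes, Irf3 had the smallest change, at -0.03 and 0.03, and Tmem173, which encodes STING, was at 0.30 and -0.06, and neither was called. The cytokine gene Il1b was below the filter, with at most 1 read in any library.

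Zbp1, a sensor of nucleic acids in the Z form, was the fourth gene of this list called in WT cells. It had 2 reads in each of the 4 libraries at day 0, 25 and 23 reads in WT cells at day 12, and 6 reads in each Def6-/- library. It rose by 2.41 in WT cells (limma adjusted p = 0.00181), and its change of 1.03 in Def6-/- cells did not pass (limma adjusted p = 0.0747). At day 12 it differed by -1.41 between genotypes, and the interaction was -1.38, both with an unadjusted p under 0.05 and neither called (limma adjusted p = 1 and 0.9998).

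Among 9 genes tied to p204 in osteoblasts, 2 were called higher at day 12 in both genotypes and none lower, where 12.7% and 12% of all tested genes were called higher and 5.64% and 4.79% lower. These were Bglap, which encodes osteocalcin, and Alpl, the gene of tissue-nonspecific alkaline phosphatase, with changes of 2.98 and 3.65 in WT cells and 4.11 and 4.45 in Def6-/- cells (limma adjusted p between 1.92e-05 and 0.000689). Bglap had no reads at day 0 and passed the filter through its day 12 values alone, so that it could not have been called lower. Runx2 itself changed by 0.44 and 0.43 and did not pass (limma adjusted p = 0.364 and 0.401). Id1, Id2 and Id3, which encode inhibitors of differentiation, had estimates below 0 in both genotypes, of which the lowest, for Id1, were -1.36 in WT cells and -1.09 in Def6-/- cells (limma adjusted p = 0.0977 and 0.184). The estimates of this list in WT cells depended on which WT library at day 0 was kept. Without WT replicate 2 at day 0, Runx2 changed by 0.95, Sp7, an osteoblast transcription factor, by 0.70, and Id1 by -2.25. Without WT replicate 1 at day 0 these changes were -0.08, -0.15 and -0.48.

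Of 8 tested genes of type I interferon signalling, 4 were called higher at day 12 in WT cells and 3 in Def6-/- cells, against 12.7% and 12% of all tested genes. Without WT replicate 2 at day 0, Tyk2 changed by 0.73 and Jak1 by 0.13 in WT cells. Without WT replicate 1 at day 0 they changed by 0.14 and -0.72. Stat2 and Irf9, which encode factors that bind the ISRE, were called in both genotypes. The rises were 1.99 and 1.18 for Stat2 and 1.65 and 0.96 for Irf9 (limma adjusted p between 0.00366 and 0.0475). Irf7 rose by 2.36 and 2.22 (limma adjusted p = 0.00886 and 0.0119), and Irf1 changed by 0.85 in WT cells, which was called, and by 0.33 in Def6-/- cells, which was not (limma adjusted p = 0.0404 and 0.416), with an interaction of -0.53 (limma adjusted p = 0.9998). The receptor genes Ifnar1 and Ifnar2 changed by 0.13 to 0.51 and were not called. Between genotypes at day 12 none of the list was called, and Irf7 had the largest difference, -1.43 (unadjusted p under 0.05, limma adjusted p = 1). Irf9 was at -0.65, also with an unadjusted p under 0.05 by limma. Irf7 was at -1.30 between genotypes at day 0 too (95% interval -2.36 to -0.24, limma adjusted p = 0.908).

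Genes that flank the cluster were mostly without reads or not called. Of 9 symbols, 7 had a row, 4 of these had no reads, and 2 passed the filter. Cadm3, an adhesion gene of the neighbouring region, fell by 1.58 in Def6-/- cells (limma adjusted p = 0.0440), and was at -1.01 in WT cells (limma adjusted p = 0.159). In Def6-/- cells it had 6 and 18 reads at day 0 and 1 and 2 reads at day 12. It passed the filter through its Def6-/- values at day 0 alone, and could hardly have been called higher there. Dusp23, which encodes a phosphatase, was not called in either genotype.

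Most markers of macrophages moved with the PYHIN genes from day 0 to day 12, but not all. Of 24 macrophage symbols 23 had a row, and none was at 0 reads in all libraries. In 4 of the 23, Csf1r, Adgre1, Ptprc and Itgam, deposited values were not whole reads, and these were left out of the sum. The 19 others summed to 278.9 to 473.7 normalized CPM in WT cells and 223.2 to 346.5 in Def6-/- cells at day 0. At day 12 the sums were 3596 to 7041 and 3911 to 4398. Of the 18 of these that passed the filter, WT cells had 17 called higher at day 12 (median change 3.43) and Def6-/- cells 16 (median change 3.32), beside 12.7% and 12% of all tested genes. Cx3cr1, a chemokine receptor gene, was not called, at -0.79 in WT cells and -0.98 in Def6-/- cells (limma adjusted p = 0.433 and 0.351). Aif1 was not called in Def6-/- cells, at 1.32 (limma adjusted p = 0.167). In WT cells it was just inside the threshold, at 1.96 (limma adjusted p = 0.0479), and at 2.38 or 1.54 without WT replicate 1 or 2 at day 0. Aif1 and Fcgr1 passed the filter through their day 12 values alone. Of the 4 markers whose values were not whole, Adgre1 was below the filter and the others were not called. Csf1r, the receptor of a macrophage growth factor, was at -0.72 in WT cells and -0.87 in Def6-/- cells (limma adjusted p = 0.200 and 0.144). Itgam was at -0.11 and 0.61 (limma adjusted p = 0.914 and 0.516), and Ptprc at 0.98 and 0.22 (limma adjusted p = 0.175 and 0.807). In bulk samples, fewer cells of a type and less RNA per cell cannot be told apart, and the part of macrophages in the rise of the PYHIN genes was not tested. Between genotypes at day 12, the macrophage sums overlapped, although the estimates of all 18 markers were below 0.

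The libraries at day 12 did not rank alike on the 2 measures. WT replicate 1 had the highest macrophage sum, 7041, and WT replicate 2 the lowest, 3596. Ifi204 was highest in WT replicate 2, at 11.3 against 6.02 in WT replicate 1. So was Ifi203, at 10.88 against 9.18, on only 26 and 32 reads. Aim2 and AI607873 were highest in WT replicate 1, at 3.16 against 1.67 (11 and 4 reads) and 11.2 against 7.12 (39 and 17 reads). Mndal, at 8.32 against 7.95 (29 and 19 reads), and Mnda, at 5.16 against 5.02 (18 and 12 reads), were also highest there. With so few reads these orders are uncertain. Irf7 followed the order of Ifi204 in WT cells, with 56.5 in replicate 2 and 28.97 in replicate 1. The 5 lymphocyte markers, Cd3e, Cd3g, Cd79a, Ms4a1 and Nkg7, had no reads in any library. The 5 endothelial markers summed to at most 13.1 normalized CPM, with Emcn at 0, whereas the 10 osteoblast markers summed to between 36480 and 133400. The 6 adipocyte markers summed to 36.9 to 46.97 at day 0, and at day 12 to 310.7 to 332.8 in WT libraries and 426.1 to 436.2 in Def6-/- libraries.

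**Figure D4:**
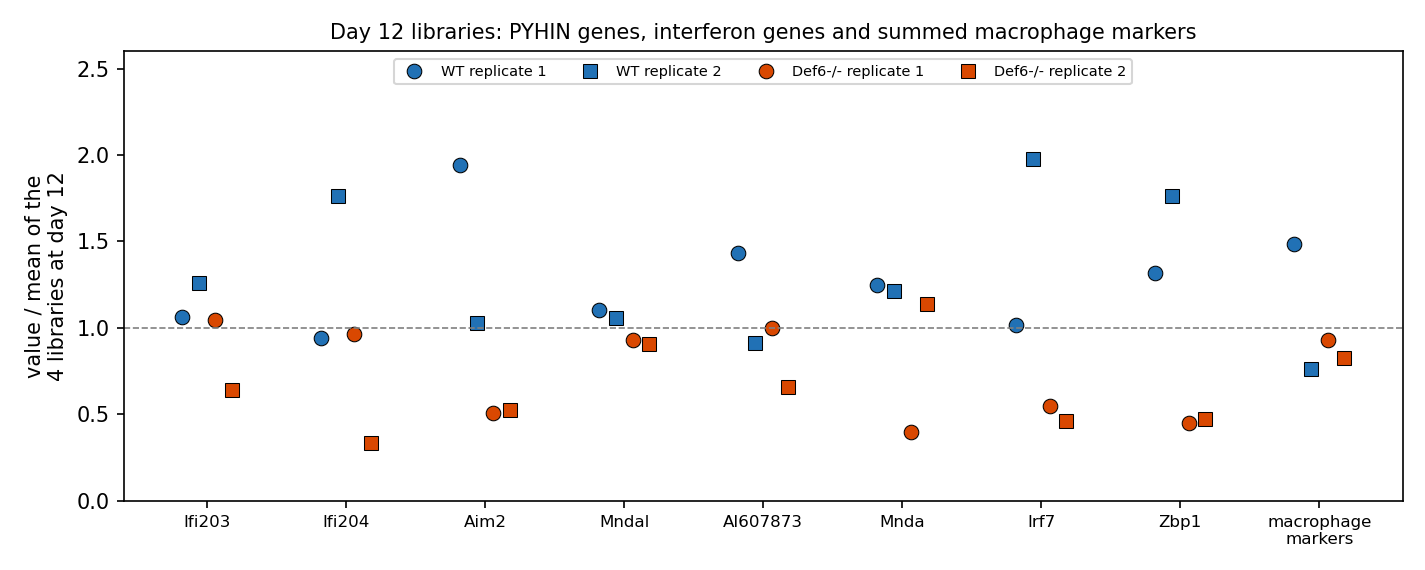
Value of each gene, or of the summed 19 macrophage markers, in the 4 libraries at day 12, divided by the mean of those 4 libraries (vertical axis); blue is WT, orange Def6-/-, circles replicate 1 and squares replicate 2. WT replicate 1 is highest for the macrophage sum (1.49), Aim2 (1.94), AI607873 (1.43), Mnda (1.25) and Mndal (1.11), WT replicate 2 for Ifi203 (1.26), Ifi204 (1.77), Irf7 (1.98) and Zbp1 (1.77).

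The genes whose pattern was most like that of Ifi203, by Pearson's r of log2(normalized CPM + 1) over the 8 libraries among the tested genes, were H2-K1 (r = 0.996), Tmem180 (0.995), Pigt (0.994), Adra2a (0.994) and Bckdha (0.993). H2-K1, a heavy chain of class I MHC that interferon induces, rose by 2.47 in WT cells and 2.38 in Def6-/- cells (limma adjusted p = 0.000922 and 0.00113). All 5 were called higher at day 12 in both genotypes, as was Ifi203. They were chosen for their likeness to it, so that this is not a separate result. For Ifi204 the most like were Map10 (r = 0.980), Sept6 (0.965), Rab29 (0.950), 1810030O07Rik (0.949) and Ly6c1 (0.942), none of which was called between days in either genotype. The 8 libraries fall into 2 days, and such an r mainly follows the day for Ifi203, whereas for Ifi204 it also follows the differences among libraries of the same day.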

How the data were processed

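Poly-A RNA of 8 libraries was sequenced by the authors, whose processing notes list fastp, HISAT2, HTSeq, edgeR and mm10. Aligned reads were counted for each gene, and CPM were deposited. Versions, annotation and strand setting are not given in the sources used here. The CPM deposited by the authors refer to all reads handled in counting, and reads on genes were 28.8% to 35.3% of these. The other reads (without a gene, ambiguous or not uniquely aligned) were left out. Reads were recovered as CPM divided by the worth of 1 read, with a tolerance of 0.01 read. Values that were not whole occurred in 9 genes, none of them PYHIN genes.

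CPM were rescaled to reads on genes with TMM factors and tested as log2(CPM + 1) with limma 3.58.1 (R 4.3.3; lmFit, eBayes with a trend, two-sided) in a fit of 4 group means over all 8 libraries, without a replicate block. Genes whose deposited CPM averaged below 1 in all groups were left out. P-values were adjusted by Benjamini-Hochberg over 12348 genes. As alternatives, recovered reads were tested with edgeR 4.0.16 and DESeq2 1.42.0, and the pseudocount (0.25), filter, scaling, block and libraries were varied. The fit was tested on simulated data. Intervals of pooled read ratios are exact binomial (95%). The study calls the 2 libraries of a group biological replicates, and p-values measure the spread between them. Replicates differed by more than sampling noise.

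The 4 genes and all lists were chosen with earlier results of these data known. Named were the 4 genes, list genes that passed a call or had the largest or smallest change, the 5 genes most like each tested gene, and Def6. Some genes of the lists are not reported here and were left out of the list counts. List genes outside this rule were named after their values were seen. Gene positions and lengths are from GENCODE M21 and promoters from RefSeq (GRCm38.p6). Older symbols were matched through RefSeq synonyms.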

Additional observations from a re-analysis of the deposited data

How the results depend on the processing

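Between days, 1 of the 4 genes was called in Def6-/- cells under each of 12 alternatives, and in WT cells under 11 of 12. The exception was the fit with no filter on low genes, which called 2 in WT cells (Ifi203 and Aim2). It was the only alternative that held Aim2 and Ifi205. Between genotypes and for the interaction the number was 0 under every alternative run. Ifi203 kept an adjusted p between 0.000356 and 0.0211 in WT cells and between 0.00114 and 0.0299 in Def6-/- cells.

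Some uncalled estimates turned their sign. The interaction of Ifi203 was 0.46 with edgeR and 0.61 with DESeq2, and between -0.65 and 0.19 when each library was left out. That of Ifi204 was 0.13 with edgeR and with DESeq2, and between -0.78 and 0.42. The genotype difference of Ifi203 at day 0 was between -0.63 and 0.21 when each library was left out. The cause was not tested. Counts over all genes moved more, but a fit with 1 library left in a group takes no spread from that group. Without WT replicate 2 at day 0, 5699 genes were called between days in WT cells, against 2261, with 2945 between genotypes at day 0, against 1, and 1282 for the interaction, against 0. Without either WT library at day 12 the first count was 885 or 986. In Def6-/- cells, leaving out each of their libraries gave 926 to 1150 genes between days, against 2075. When each genotype was fitted alone, 1093 genes were called between days for WT and 3914 for Def6-/-.

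Libraries share only a replicate number (correlation of same-numbered differences 0.0369 to 0.327). With the replicate block, 1 of the 2 members that passed the filter was called between days in each genotype and 0 between genotypes or for the interaction, as without it. Reads limit what can be seen: no PYHIN gene had more than 39 reads in a library.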
